A study of Oryza sativa Japonica Group with 30 samples.

Results

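Type II MADS genes encode transcription factors, some of which set the identity of floral organs. Described here, as read in the rice caryopsis, are 9 of them known from the flower, the ovule or the seed. They were chosen by gene identifier: MADS29 of the B-sister clade, MADS6 of the AGL6 clade, MADS1, MADS7 and MADS8 of the E class, MADS13 and MADS21 of the D class, and MADS3 and MADS58 of the C class. All 9 were among the 55801 gene identifiers measured, and all 9 were found by symbol, on the same chromosome, in the RefSeq gene table for assembly ASM3414082v1. A list of another 28 type II MADS genes stood for the rest of the family, and whether it is complete was not checked. The 9 genes and the list of 28 were both chosen with earlier results of these data known.

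Type II MADS proteins bind DNA as dimers and join into larger complexes. In the usual model of the flower, C class proteins specify stamens and carpels, D class proteins specify ovules, and E class proteins are the partners that hold the complexes together. B-sister genes act mainly in the tissues of the ovule and seed that come from the mother plant. In rice these tissues include the nucellus, which breaks down as the endosperm grows, and the coat layers around it.

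RNA came from whole caryopses (each a young grain inside its fruit coat) taken 7 days after pollination from paddy-grown plants. The samples numbered 30, with 3 in each of 10 groups. The groups were plants overexpressing ONAC127, plants overexpressing ONAC129, ONAC127 mutants, ONAC129 mutants and the wild type ZH11, each under natural heat stress and under normal cultivation. Under heat stress the air stayed above 35 °C for about 6 h each day through most of growth and reached about 40 °C. Under normal cultivation it passed 35 °C on 3 days, with a daytime mean near 30 °C. ONAC127 and ONAC129 encode NAC transcription factors. The promoter behind the overexpression, the kind of mutation, the number of independent lines and whether the samples of a group were separate plants are not stated by the labels.

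Each gene had 1 value, the mean over libraries of its read counts after division by library size factors (normalised counts). It pools all genotypes and both conditions, so no value per sample, no effect of ONAC127, ONAC129 or heat, and no spread between plants can be given, and none of these comparisons was made. The lowest values of the profile showed that 1 read was worth between 0.0203 and 0.0605 normalised counts, depending on the library. The ranges in parentheses below are 95% limits for counting error only, taken at the widest that these read worths allow. They treat reads as independent molecules. No value is scaled to gene length, and transcript lengths were not used here. Comparisons between genes are therefore comparisons of reads, not of transcript numbers. In such bulk tissue, fewer cells of a type and less RNA per cell cannot be told apart.

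All 9 genes were read, and they ranged from 39.4 normalised counts for MADS6 to 1320 for MADS8, with a median of 399. All 9 reached 10 normalised counts, as did 39.5% of all genes measured and 17 of the other 28 type II MADS genes. At 100 normalised counts the numbers were 7 of the 9, 21.4% of all genes and 3 of the other 28. MADS8 alone reached 1000, as did 3.78% of all genes and 0 of the other 28. Together the 9 genes held 3726 normalised counts, which was 0.0321% of the reads of the whole profile. In the order of reads, MADS8 came first, then MADS7, MADS21, MADS3, MADS13, MADS29, MADS58, MADS1 and MADS6. Of the 8 steps in this order, 7 were larger than counting error. The exception was the step between MADS29 and MADS58, where the difference was 4.81 normalised counts with limits of -2.24 and 11.9.

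**Figure D1:**
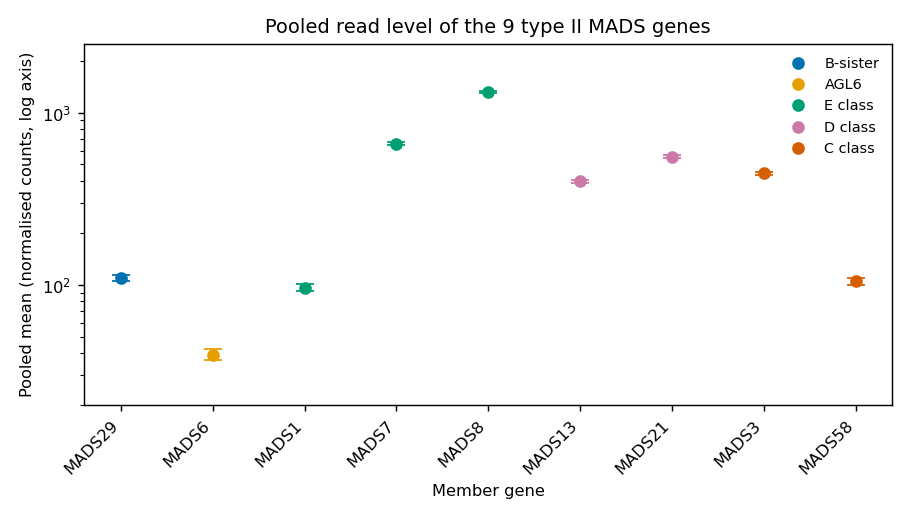
Pooled mean of each of the 9 genes in normalised counts on a log axis, coloured by clade or class; bars are 95% limits for counting error only and show no spread between samples. MADS8, at 1320, and MADS7 lie above the other genes, and MADS6, at 39.4, lies lowest.

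The E class genes held 55.7% of the reads of the 9. MADS8 (LOC_Os09g32948, chromosome 9), a partner of the inner floral organ factors, had 1320 normalised counts (1302 to 1337), more than 97.1% of all genes. MADS7 (LOC_Os08g41950, chromosome 8), a close relative with a like role that is also known to affect amylose content in the endosperm at high temperature, had 659 (647 to 671), more than 94.2% of all genes. MADS8 thus had 661 normalised counts more than MADS7, with counting limits of 639 and 682. MADS1 (LOC_Os03g11614, chromosome 3), which specifies the lemma and palea and limits the floral meristem, had only 96.3 (91.5 to 101.0). MADS8 had 13.7 times the reads of MADS1. The other E class genes were lower again. MADS5 had 12.0 and MADS34, which acts in the branching inflorescence, had 3.16 normalised counts. MADS7, MADS8 and MADS1 together held 99.3% of the reads of the 5 E class genes.

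Both D class genes were well read and close to each other. MADS21 (LOC_Os01g66290, chromosome 1), known from developing rice seeds, had 554 normalised counts (543 to 566), more than 93.2% of all genes. MADS13 (LOC_Os12g10540, chromosome 12), required for ovule identity, had 399 (389 to 408), more than 91.0% of all genes. MADS21 had 1.39 times the reads of MADS13, with limits of 1.35 and 1.44. Their sum of 953 normalised counts made up 25.6% of the reads of the 9 genes, and the family list held no further D class gene.

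The C class genes, which are also a pair of relatives, lay further apart. MADS3 (LOC_Os01g10504, chromosome 1), known for stamen identity, had 444 normalised counts (434 to 454), more than 91.8% of all genes. MADS58 (LOC_Os05g11414, chromosome 5), known for floral meristem determinacy and carpel form, had 105 (99.9 to 109.7). MADS3 had 4.24 times the reads of MADS58, with limits of 4.02 and 4.47. How alike the sequences of MADS3 and MADS58, of MADS13 and MADS21, or of MADS7 and MADS8 are was not analysed here, so reads that the counting could have split or dropped between relatives remain unknown.

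MADS29 (LOC_Os02g07430, chromosome 2), a regulator of nucellus breakdown, had 109.6 normalised counts (104.6 to 114.6), more than 79.5% of all genes. This rests on at least 1813 reads over the 30 libraries. Its B-sister relatives had fewer: MADS30, a diverged member of the clade, had 28.3 and MADS31 had 20.3. MADS29 held 69.3% of the reads of the 3 B-sister genes. It had 3.88 times the reads of MADS30 and 5.41 times those of MADS31.

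MADS6 (LOC_Os02g45770, chromosome 2), an AGL6 gene that acts in floral organs and meristem and is known to affect nutrient storage in the endosperm, was the lowest of the 9. It had 39.4 normalised counts (36.3 to 42.4), more than 70.2% of all genes, and rests on at least 651 reads. The other AGL6 gene, MADS17, had 16.3. MADS6 had 2.42 times the reads of MADS17, with limits of 2.10 and 2.78.

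**Figure D2:**
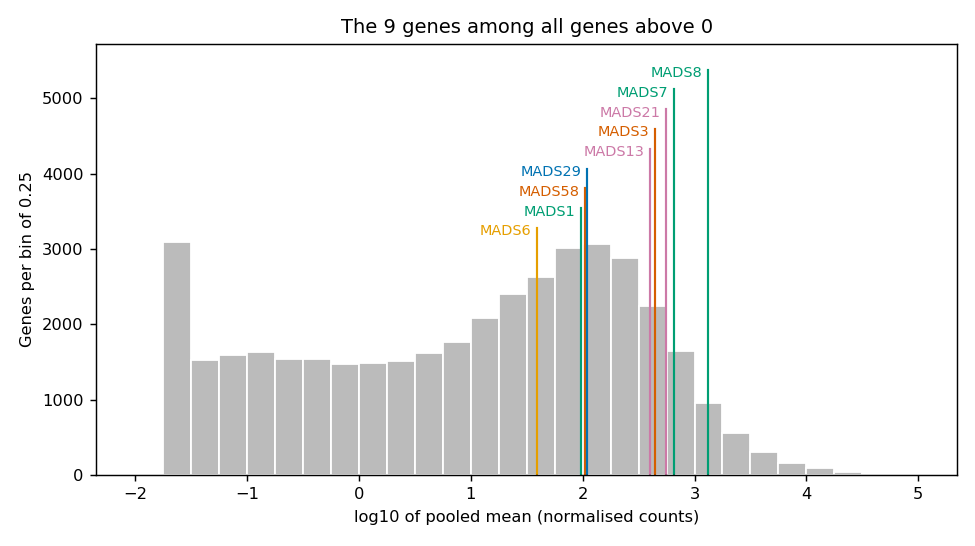
Number of genes per bin of 0.25 on the log10 scale of the pooled mean (normalised counts), for all genes above 0; coloured lines mark the 9 genes and colours stand for their class. MADS6, MADS1, MADS58 and MADS29 lie near the broad peak of the distribution, and MADS13, MADS3, MADS21, MADS7 and MADS8 lie on its falling right side.

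Among all 37 type II MADS genes listed, from 13 clades, the 9 held 67.5% of the reads, with counting limits of 67.2% and 67.8%. MADS8, MADS7, MADS21, MADS3 and MADS13 took ranks 1, 3, 4, 5 and 6 of these 37. MADS29 took rank 9, MADS58 rank 10, MADS1 rank 11 and MADS6 rank 19. The median over the 9 genes was 399 normalised counts, against 20.2 over the other 28. Both sets were chosen with earlier results of these data known. The counting limits cover neither that choice nor any family gene missing from the list. Neither the share nor the medians therefore test the 9 against the family. Rank 2 belonged to MADS22, an SVP gene known for meristem identity, with 925 normalised counts. The other SVP genes MADS47 and MADS55 had 135 and 77.1. MADS56, a SOC1 gene linked to flowering time, had 128, against 4.09 for MADS50 of the same clade. Of the other 28 genes, 10 had more reads than MADS6.

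The B class genes, which specify lodicules and stamens, all lay below MADS29, but MADS2 and MADS16 lay above MADS6. MADS2 had 61.8, MADS16 had 47.2 and MADS4 had 27.6 normalised counts. The 4 genes of the AP1/FUL clade, which act in the meristem of the flower, ranged more widely, with 56.8 for MADS14, 22.5 for MADS18, 7.08 for MADS15 and 0.158 for MADS20. In the AGL17 clade, which includes genes known from roots, MADS57, MADS23 and MADS27 had 79.4, 58.3 and 53.1, whereas MADS25 and MADS61 stayed below 1, at 0.887 and 0.465. MADS32, a type found in grasses, had 20.1. The AGL12 genes MADS26 and MADS33 had 4.87 and 0.365. The 3 MIKC* genes, a group known from pollen, were at 1.26 for MADS62, 0.160 for MADS63 and 2.07 for MADS68. Of the other 28 genes, 5 lay below 1 normalised count and none was at 0. Among all genes measured, 50.9% reached 1 and 26.8% were at 0.

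**Figure D3:**
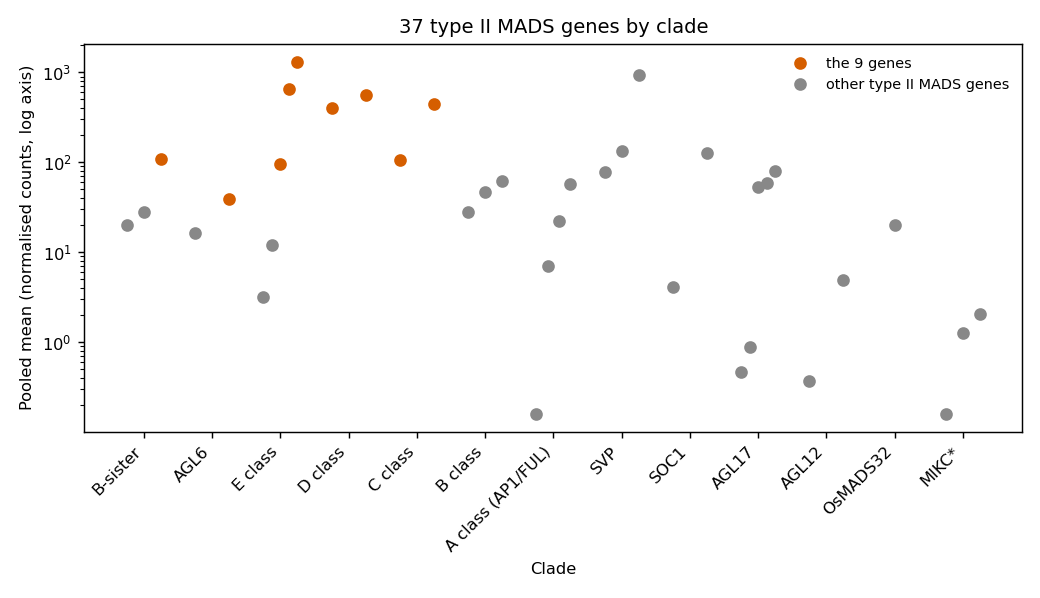
Pooled mean in normalised counts (log axis) of 37 type II MADS genes by clade, with the 9 genes in orange and the other 28 in grey. In the B-sister, AGL6 and E class clades each orange point lies above every grey one, and the SVP gene MADS22, at 925, is the highest grey point.

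Tissue markers gave the setting of these values. The endosperm starch genes GBSSI, BEIIb and AGPL2 had 39906, 15782 and 12909 normalised counts. The oil body genes Ole16 and Ole18, of embryo and aleurone, had 24670 and 21160, and OSH1, of the embryo shoot meristem, had 15.3. The carpel identity gene DL had 76.1. Of the 4 anther genes, UDT1 had 15.4, TDR had 1.78, RTS had 0.356 and OSC6 had 0.0898. The last value is 3 reads in all. Which tissue of the caryopsis the reads of the 9 genes came from was not tested. GBSSI, BEIIb, AGPL2 and Ole16 were not found by symbol in the reference.

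The surroundings of the 9 genes on their chromosomes differed. Of the 10 nearest gene identifiers, 5 on each side, all 10 had fewer reads than MADS8, MADS13, MADS21, MADS3 and MADS58. For MADS7 the number was 8, for MADS6 and MADS1 it was 5, and for MADS29 it was 4. The share of all genes with fewer reads was 97.1% for MADS8, 91.0% for MADS13, 93.2% for MADS21 and 91.8% for MADS3. It was 79.05% for MADS58, 94.2% for MADS7, 70.2% for MADS6, 78.3% for MADS1 and 79.5% for MADS29. A count near such a share says little about the surroundings. Over all genes measured, 26.8% were at 0 and 50.9% reached 1 normalised count. MADS58 stood at 105 normalised counts among neighbours with a median of 0.253, of which the highest had 6.62 and 3 were at 0. MADS13 stood at 399 among neighbours with a median of 0.305, of which 2 were at 0, although LOC_Os12g10560 had 194 and LOC_Os12g10510 had 178.5. MADS29, at 109.6, had neighbours with a median of 156, of which 3 lay below 1 normalised count and the highest had 641.5. MADS6, at 39.4, had 5 neighbours at 0, the most of the 9 genes, and 5 with more reads than itself, up to 804 for the adjacent LOC_Os02g45760. Whether the counting used strand is not stated, so reads of overlapping genes may be mixed, and whether any of these neighbours overlap was not tested.

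Among these neighbours were the carpel identity gene DL and another gene of the type II MADS list. Whether neighbours outside the lists encode MADS proteins was not checked. MADS1, with 96.3 normalised counts, and DL, with 76.1, follow each other directly both in the gene identifiers and among the protein-coding genes of the RefSeq table. MADS1 had 20.2 normalised counts more than DL, with limits of 13.9 and 26.5. MADS13, with 399, and the AGL12 gene MADS33, with 0.365, are also next to each other among the RefSeq protein-coding genes, with 1 further identifier between them in the files.

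**Figure D4:**
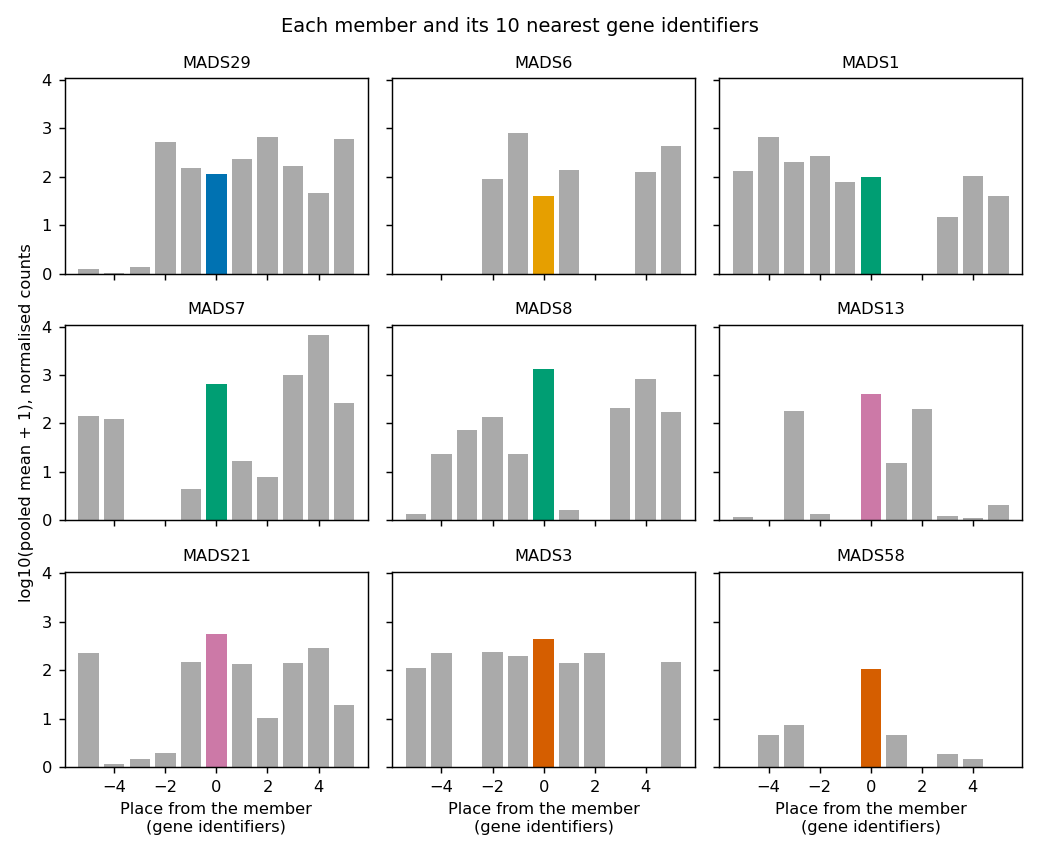
One panel per gene, with the gene in colour and its 10 nearest gene identifiers in grey; the horizontal axis is the place in the order of identifiers and the vertical axis is log10 of the pooled mean plus 1 (normalised counts). MADS8, MADS13, MADS21, MADS3 and MADS58 stand above all 10 of their neighbours. For MADS29, MADS6, MADS1 and MADS7, some neighbours have more reads than the gene itself.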

How the data were processed

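The authors sequenced total RNA of 30 caryopsis samples. Per the submitters' processing notes, CASAVA 1.7, HISAT2 2.0.5 and DESeq2 were used; what counted the reads, on which build and annotation, and whether by strand, is not given in the sources used here. All 8 tables that the authors deposited were identical. Per the file headers each holds a gene identifier and a baseMean, taken here as a signal that the authors pooled over libraries: the mean of counts divided by size factors. It carries no sample, error or test. Planned tests of genotype and heat, levels per coding length and protein comparisons were not run.

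The worth of 1 read per library was recovered from values below 0.1 that at least 20 genes share and that are not sums of smaller ones within 1e-11. This gave 30 values, and all 7402 means above 0 and below 0.15 were a sum of at most 8 whole reads in exactly 1 way within 2e-15. Inferred size factors ran from 0.551 to 1.64. Counting limits are normal 95% limits whose variance is the value times the largest worth. On simulated means of 16000 genes, all 30 worths and the reads of 600 of 600 genes were recovered, and the limits held the true value for 99.2% of 1009 genes. The simulated counts held counting error only, with no spread between samples. This coverage therefore checks the arithmetic of the limits and does not test them on real libraries.

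The 9 genes and all lists were chosen with earlier results of these data known. The text names all 9, every gene of the family list and every tissue marker; the neighbours given by identifier were named after their values were seen. Loci were paired with symbols from general knowledge. Of the 37 family loci, 31 were found by symbol on the same chromosome within 0.1 of its length, and 6 had no symbol there (MADS31, MADS32, MADS61, MADS62, MADS63 and MADS68). Of 11 markers, 7 were found. Genes with a like pattern were not sought, since each gene has 1 value. Values were computed with pandas 2.3.3 and numpy 2.4.6 under Python 3.11.15 and drawn with matplotlib 3.10.9.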

Additional observations from a re-analysis of the deposited data

How the results depend on the processing

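All 9 genes reached a minimum of 1 or 10 normalised counts and 7 reached 100. The shares of all genes at these minima were 50.9%, 39.5% and 21.4%. The share of the listed type II MADS reads held by the 9 was 67.5%, also without the MIKC* genes. With only the genes found by symbol in the reference it was 68.0%, above the counting limits of 67.2% and 67.8%. Under alternatives chosen after seeing the data it was 81.1% without MADS22, 57.3% without MADS8 and 97.9% over the 5 clades that hold the 9 genes; each follows from the genes left out. Division by length was not run, because no transcript length of the files' build was used. Leaving out replicates, other normalisations, tools and filters need sample-level values and were not run. No paired analysis was possible because each gene has 1 value over all libraries. A pooled mean hides a change in any 1 group.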

Other observations

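At the low end of the family, single reads were counted. MADS20, of the AP1/FUL clade, had 6 reads in 5 of the 30 libraries, and MADS63, of the MIKC* group, had 4 reads in 4 libraries. Their means, 0.158 and 0.160, lie above the 0.15 below which all means were checked. Each was a sum of at most 8 whole reads in exactly 1 way. The libraries carry no label, so the reads belong to no known genotype or condition.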
